A study of Mus musculus with 24 samples.

Results

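The collagen chain genes of the mouse were followed in pancreatic stellate cells (PSC) that were cultured with or without pancreatic cancer cells. A gene was taken as a member if it is protein-coding in the GENCODE M21 annotation and its symbol has the form of a collagen alpha chain (Col, type number, a, chain number). This gave 44 of 53801 genes listed, on 15 chromosomes, and all 44 were present in the data. By structure, 11 encode fibrillar chains, 9 network-forming chains, 9 FACIT chains (fibril-associated collagens with interrupted triple helices), 6 beaded filament chains, 4 transmembrane chains and 5 chains outside these 5 types.

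PSC came from pooled pancreata (4 to 10 per isolation) of wild-type C57BL/6J mice aged 7 to 10 weeks and were used at early passage. All PSC grew on a culture insert with 1 µm pores. KPC cells, a single line of murine pancreatic cancer cells from a genetically engineered mouse with p48-Cre, grew on the bottom of the well in standard co-culture and on the underside of the insert membrane in inverse co-culture. The 8 groups of 3 libraries were co-cultured PSC and control PSC without KPC cells, in each model, at 24 h and 72 h. RNA input was 450 ng in the standard and 120 ng in the inverse model, and PSC in the inverse model met KPC cells as soon as they were seeded, which gave up to 96 h together in place of 72 h. PSC of the standard model, controls included, were seeded in another medium and changed to the final one when the time count began. Those of the inverse model were seeded in the final medium. Model, RNA input, medium at seeding and time together therefore cannot be told apart. PolyA RNA was measured as FPKM (fragments per kilobase of gene length, scaled to sequencing depth).

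Collagens are triple helices of 3 alpha chains, which may be the same or different genes' products. The chains are hydroxylated and assembled in the endoplasmic reticulum, secreted, trimmed and cross-linked. Types I, III and V form the fibrils of fibrous tissue, type IV the meshwork of basement membranes and type VI microfibrils around cells. Activated PSC produce collagen and are regarded as a source of the fibroblasts in the stroma of pancreatic cancer.

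Libraries held between 15932736 and 24798760 fragments, recovered from the FPKM values. Of 9 stellate cell and fibroblast markers, Vim (706 to 1994 FPKM), Des (26.2 to 87.8) and Pdgfrb (126 to 194) were present in all libraries, whereas Gfap did not exceed 0.24 and Pdpn 0.042. Endothelial markers summed to at most 2.4 FPKM. In the standard model, replicate 1 stood apart at 24 h in both groups and at 72 h in the control, with Acta2 at 3129, 5963 and 4537 FPKM, against 476 to 1509 in the other libraries of that model, the 72 h co-culture of replicate 1 included (1194). Calls, medians and the changes that moved most in the standard model are therefore also given without replicate 1. In inverse co-culture at 24 h, replicate 2 held more keratin RNA (Krt8 15.2, Krt19 11.6 FPKM) than the other libraries (up to 3.14 in either gene).

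Collagen chains took up 5.00% to 9.63% of all fragments of a library. At 72 h the share was higher in co-culture without overlap. It was 8.17% to 9.63% against 6.49% to 7.22% in the standard model and 7.71% to 8.92% against 5.84% to 7.51% in the inverse model. At 24 h the groups overlapped in both models. A few fibrillar chains made up most of the collagen fragments. Because the deposited FPKM of a gene rests on the mean length of its annotated transcripts, which is short for some chains, levels between chains were compared as fragments per kilobase of the longest coding transcript, scaled to depth in the same way. On that scale Col3a1 (homotrimer of type III) had a mean level of 4008 over the 24 libraries, Col1a1 of 2394 and Col1a2 (both type I) of 2023. Together they held 50.3% to 70.3% of collagen fragments. Col5a2 followed at 713 and Col5a1 at 390, the chains of type V, which controls the diameter of fibrils. The order of the first 3 was not the same in all libraries: Col3a1 lay below Col1a1 in the 3 standard libraries of replicate 1 named above, with ratios of 0.405, 0.596 and 0.640, and above it in the other 21.

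**Figure D1:**
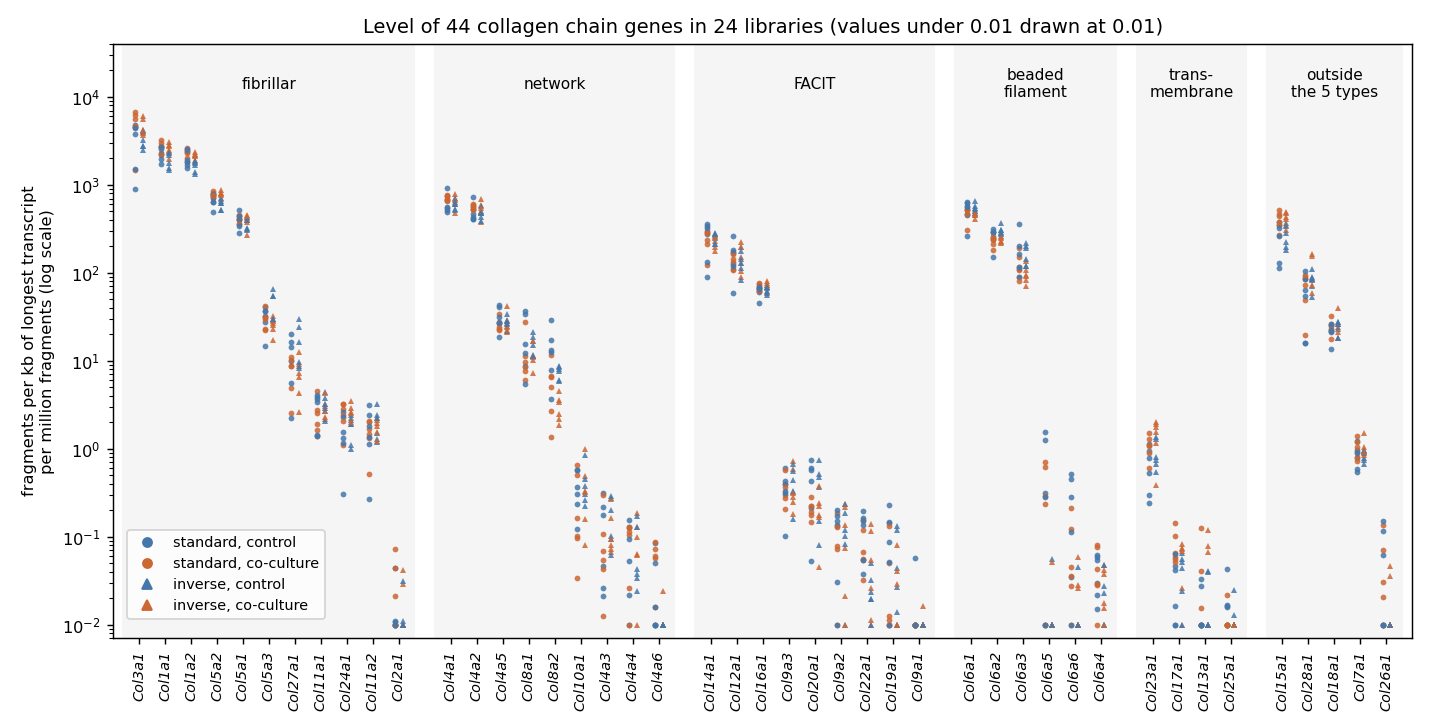
Level of each of the 44 collagen chain genes (x axis, grouped by class) in each of 24 libraries, as fragments per kilobase of the longest coding transcript, scaled to depth in the same way on a log axis. Circles stand for the standard and triangles for the inverse model, blue for control and orange for co-culture, and values under 0.01 are drawn at 0.01. Means run from 4008 for Col3a1 to under 0.1 for 12 chains.

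Among network chains, Col4a1 and Col4a2, the pair of the ubiquitous basement membrane molecule, had mean levels of 646 and 516, and Col4a5 of 28.1. Type VIII, a short-chain network collagen of vessel walls and Descemet's membrane, was scarce, with Col8a1 at 14.4 and Col8a2 at 7.52. Of the FACIT chains, Col14a1 (245), Col12a1 (146) and Col16a1 (66.8), which sit on the surface of fibrils, were found in every library. Beaded filaments were represented by Col6a1 (499), Col6a2 (260) and Col6a3 (140), the classical chains of type VI. Outside the 5 types, Col15a1 (336) and Col18a1 (23.9), the multiplexins of the basement membrane zone, and Col28a1 (78.0) were prominent. Col23a1 at 1.03 was the most abundant transmembrane chain, whereas Col17a1 and Col13a1 had means of 0.051 and 0.025.

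In all, 23 chains exceeded an FPKM of 1 in every library, 7 in some and 14 in none. The last were Col2a1 (cartilage), Col4a3, Col4a4 and Col4a6 (kidney and other specialized basement membranes), Col9a1, Col9a2, Col19a1 and Col22a1 (FACIT), Col6a4, Col6a6, Col13a1, Col17a1, Col25a1 and Col26a1. A chain was tested in a comparison when its FPKM exceeded 1 in at least 3 of the libraries compared. For 26 chains this held in all 10 comparisons, for 29 in at least 1, and 15 were never tested, the 14 above and Col10a1. Their highest value in any library was 1.00 FPKM, and their median fragment number ranged from 0 to 18.5.

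Chains that share a molecule differed in how constant their ratio was. The head-to-head genes Col4a1 and Col4a2 lie on chromosome 8 (GRCm38, 11198423 to 11312826 on the minus and 11312805 to 11449287 on the plus strand) and their annotated starts overlap by 22 bases. These 22 bases are shown because both transcripts begin in them, with a GGGCGG box in capitals.

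Col4a1 and Col4a2 shared start, chr8:11312805-11312826, plus strand: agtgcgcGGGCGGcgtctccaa

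The level of Col4a1 varied 1.92-fold and that of Col4a2 1.91-fold between libraries, whereas their ratio stayed between 1.16 and 1.35 in all 24. The ratio of Col1a1 to Col1a2 lay between 0.956 and 1.496, that of Col6a1 to Col6a2 between 1.72 and 2.21 and that of Col5a1 to Col5a2 between 0.396 and 0.733. Wider ranges were found for Col6a3 to Col6a1 (0.140 to 0.790), Col5a3 to Col5a1 (0.038 to 0.205), Col11a1 to Col11a2 (0.459 to 5.25) and Col8a2 to Col8a1 (0.049 to 3.35). In the standard libraries of replicate 1, the 72 h co-culture left out, Col6a3 to Col6a1 was 0.617 to 0.790, against at most 0.382 elsewhere. Col11a1 to Col11a2 was highest in the standard 24 h control of replicate 1. Col8a2 to Col8a1 was lowest in the standard 24 h co-culture of replicate 1 and highest in the 24 h control of replicate 2. Both extremes of Col5a3 to Col5a1 came from inverse 72 h libraries.

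**Figure D2:**
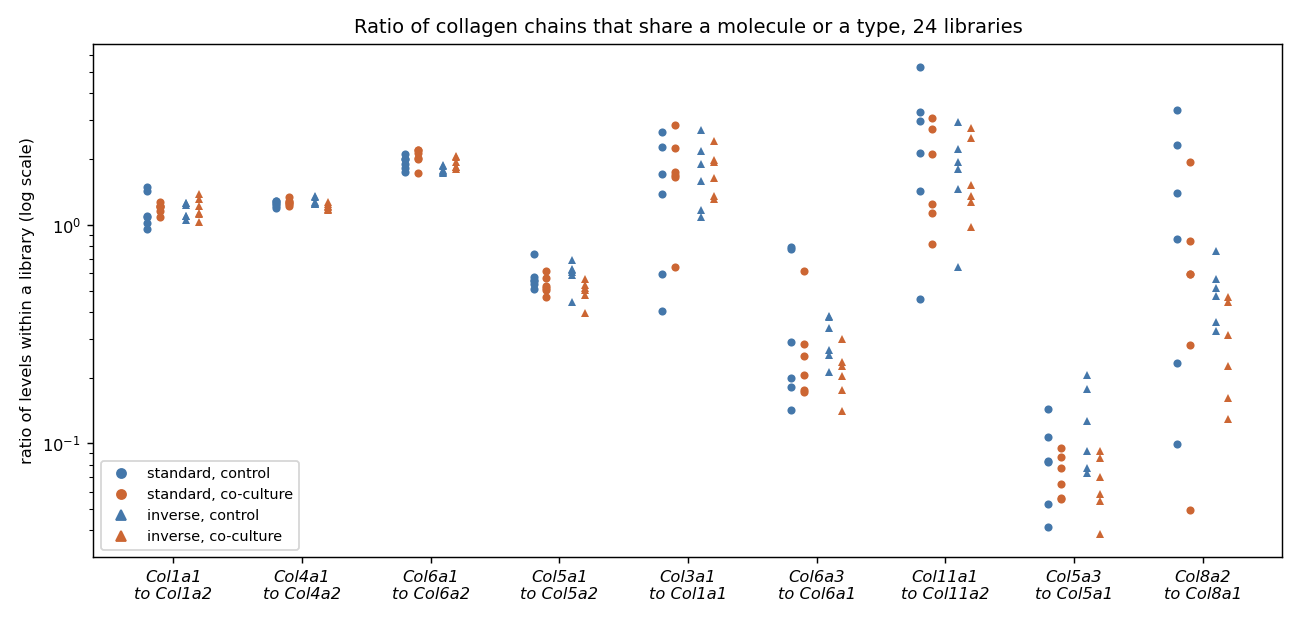
Ratio of the levels of chain pairs within each of 24 libraries, on a log axis, with levels per kilobase of the longest coding transcript. Circles are standard and triangles inverse libraries, blue control and orange co-culture. Col4a1 to Col4a2 stayed within 1.16 and 1.35, whereas Col8a2 to Col8a1 ran from 0.049 to 3.35.

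In each model and at each time, 3 co-cultures were set against the 3 controls by limma on log2(FPKM + 0.5), with Benjamini-Hochberg adjustment over all genes tested and a call at an adjusted p under 0.05. Fold changes on this scale understate the change of chains with a low FPKM. The study tested counts with DESeq2 and reported differentially expressed genes in both models at both times. The shares of genes called below, 0% in standard co-culture, belong to the fit on FPKM. The p-values measure the spread between the 3 libraries of a group, which the study calls biological replicates. Whether these came from separate isolations is not given in the sources used here. In the standard model this spread includes differences that same-numbered libraries of both groups share. In bulk RNA, fewer cells of a type and less RNA per cell cannot be told apart.

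**Figure D3:**
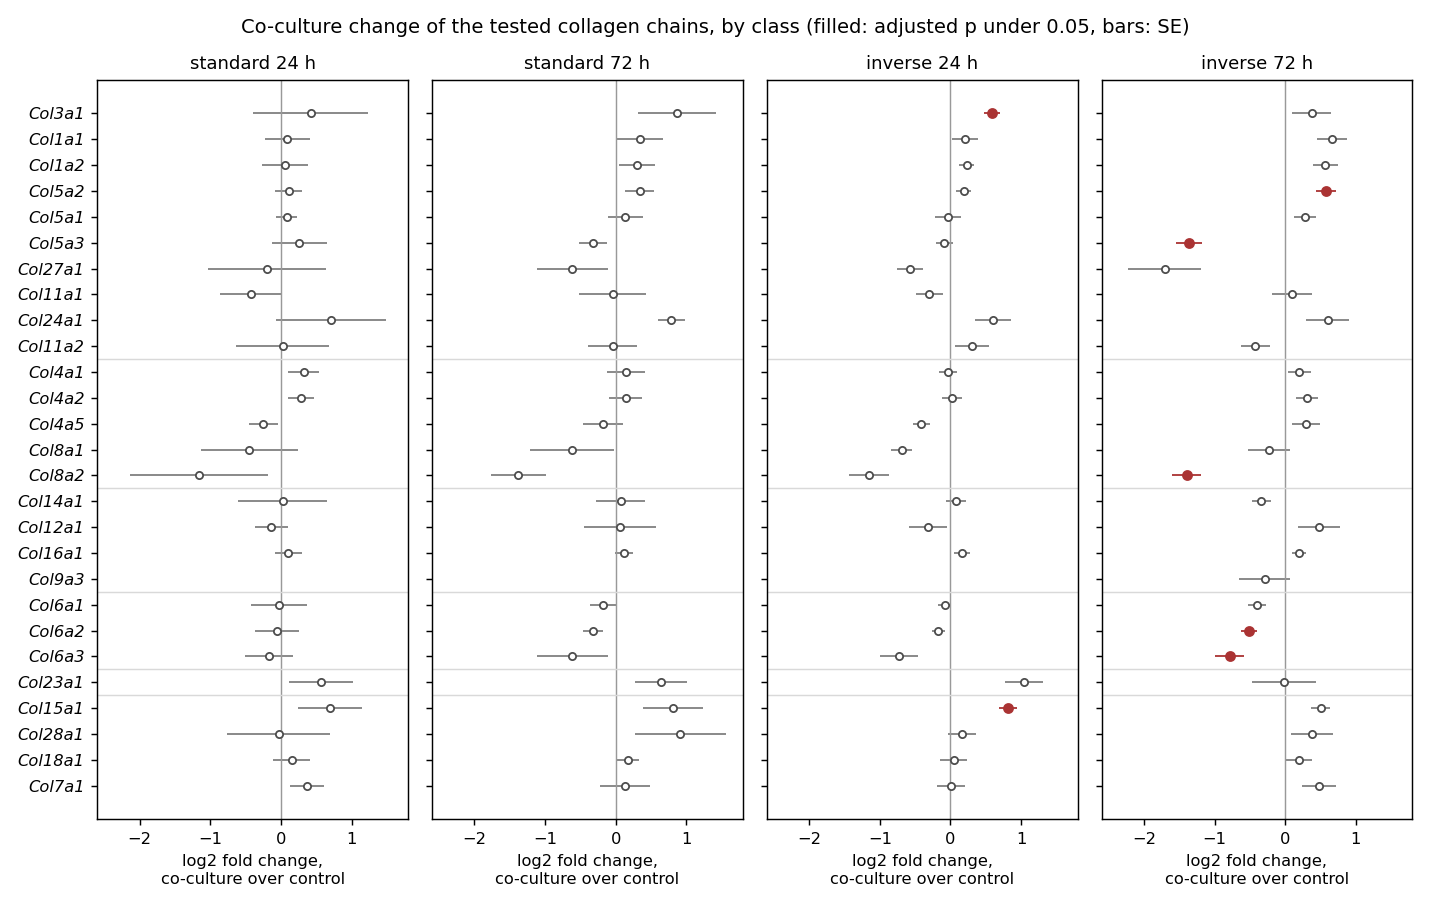
Log2 fold change of co-culture over control (x axis) with its SE (bars) for each collagen chain tested in the 4 comparisons, by class from fibrillar (top) to those outside the 5 types (bottom). Filled red points have an adjusted p under 0.05: Col3a1 and Col15a1 in the inverse model at 24 h, and Col5a2, Col5a3, Col8a2, Col6a2 and Col6a3 at 72 h.

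In standard co-culture at 24 h 0 of 26 chains tested was called, and 0% of 12859 genes were. By limma on fragments (voom) the count was also 0, and 0 chains had an unadjusted p under 0.05. The median log2 fold change of the chains was 0.07, against -0.01 over all genes tested. For no chain were the co-culture and control values apart, beside 3.35% of all genes that were higher and 4.38% that were lower without overlap. Without replicate 1 the count was 0 as well, the median of the chains was -0.04, and 4 of 26 log2 fold changes changed sign (Col1a2, Col11a2, Col14a1 and Col16a1), all from values of at most 0.11. Same-numbered libraries of this model deviated together, and a fit blocked on that number called 1 chain, Col8a2 (log2 fold change -1.16, adjusted p = 0.020 by limma), among 0.56% of all genes called lower. Its FPKM was 2.50, 21.8 and 12.5 in co-culture and 6.74, 53.6 and 24.5 in the control. Each co-culture value was lower than that of its pair, although the groups overlapped widely.

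In standard co-culture at 72 h again 0 of 26 chains were called, by limma or by voom, with 0% of 12863 genes called. An unadjusted p under 0.05 was found for 2 chains. The groups did not overlap for 5 chains. Col1a2, Col5a2 and the minor fibrillar chain Col24a1 were higher in co-culture, as were 3.36% of all genes. Col6a2 and Col8a2 were lower, as were 9.78% of all genes. Col8a2 was at 5.03, 9.32 and 11.99 FPKM in co-culture and at 14.6, 23.6 and 32.1 in the control, with a log2 fold change of -1.38 ± 0.39 (SE, adjusted p = 0.72, and 0.13 with the replicate block). Col5a2 was at 1725, 1646 and 1724 against 1565, 1085 and 1420 FPKM (0.34 ± 0.21, adjusted p = 0.80). Col3a1 was at 13976, 20531 and 19200 against 4666, 14136 and 13730 FPKM (0.87 ± 0.55, adjusted p = 0.80), and its lowest value was that of control replicate 1. The median log2 fold change was 0.13 in the chains and -0.09 in all genes tested. Without replicate 1, 0 chains were called and the median was 0.12. The log2 fold change of Col3a1 was then 0.51 ± 0.23 (adjusted p = 0.39), and 2 of 26 changed sign (Col14a1, from 0.07 to -0.31, and Col4a5, from -0.18 to 0.06). The log2 fold changes that moved most were those of Col28a1 (0.91 to 0.18), Col15a1 (0.81 to 0.22) and Col8a1 (-0.62 to -0.04). Next came Col6a3 (-0.61 to -0.12), Col23a1 (0.64 to 0.15) and Col12a1 (0.06 to 0.53).

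In inverse co-culture at 24 h, Col3a1 and Col15a1 rose. They were 2 of 26 chains tested, beside 1.08% of 12827 genes called higher and 1.39% called lower, and 0 chains were called lower. The median log2 fold change was 0.01 in the chains and -0.06 in all genes. Median-ratio scaling changed the calls over all genes from 139 higher and 178 lower to 178 higher and 145 lower. Before the values, the 100 bases upstream of the RefSeq start of both genes are shown (GRCm38.p6), since they are the chains called at this time. Of 5 motifs searched on both strands (the CCAAT box, the TATAAA box, the GGGCGG box of Sp factors, the CAGAC element of Smad factors and the TGANTCA element of AP-1 factors), matches are in capitals, and these windows hold 1 match to CAGAC, read on the minus strand in Col3a1.
Col3a1, chr1:45311438-45311537, plus strand: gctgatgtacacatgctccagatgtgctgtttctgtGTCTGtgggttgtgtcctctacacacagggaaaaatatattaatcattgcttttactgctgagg
Col15a1, chr4:47207912-47208011, plus strand: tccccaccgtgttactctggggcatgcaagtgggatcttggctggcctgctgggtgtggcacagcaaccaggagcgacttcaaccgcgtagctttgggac

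Col3a1 was at 12036, 12234 and 12959 FPKM in inverse co-culture and at 8526, 8591 and 7699 FPKM in the control. The gene lies on chromosome 1 (45311538 to 45349706, plus strand), 24614 bases from Col5a2 on the opposite strand. All co-culture values lay above all control values, with a log2 fold change of 0.59 ± 0.11 (adjusted p = 0.030). Col15a1, a proteoglycan collagen that links basement membrane to fibrils, was at 824, 925 and 1081 against 595, 479 and 526 FPKM. Its groups did not overlap either (0.82 ± 0.13, adjusted p = 0.017). Both calls depended on single libraries and on the fit, and neither held with all 24 libraries in one model (adjusted p = 0.54 for Col15a1 and 0.88 for Col3a1). That of Col15a1 was lost without co-culture replicate 2 (adjusted p = 0.072), control replicate 2 (0.083) or control replicate 3 (0.085). That of Col3a1 was lost without co-culture replicate 2 (0.125), control replicate 1 (0.153), control replicate 2 (0.117) or control replicate 3 (0.129). Co-culture replicate 2 is the library with the keratin RNA, with 45.9 FPKM summed over the epithelial markers against at most 2.03 in the controls. Acta2, the smooth muscle actin of activated PSC, fell from 2849 ± 66.9 to 1415 ± 143 FPKM (SD, n = 3, log2 fold change -1.01 ± 0.11, adjusted p = 0.0051). Of 7 stellate cell and fibroblast markers tested it alone was called lower, and the receptor Pdgfra was called higher, at 303 ± 5.24 against 210 ± 13.3 FPKM (0.53 ± 0.09, adjusted p = 0.022). The part of the keratin RNA, Acta2 and Pdgfra in the collagen result was not tested.

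At this time 5 chains were higher without overlap (Col1a2, Col3a1, Col24a1, Col15a1 and Col23a1, beside 7.38% of all genes), and 5 were lower (Col6a2, Col27a1, Col4a5, Col8a1 and Col8a2, beside 13.8%). Both chains of type VIII were among the latter. Col8a1 was at 13.3, 14.7 and 14.8 FPKM against 27.5, 23.8 and 19.3 (-0.69 ± 0.15, adjusted p = 0.050, just above the threshold). Col8a2 was at 8.45, 6.63 and 3.43 against 14.2, 11.1 and 15.6 FPKM (-1.15 ± 0.29, adjusted p = 0.085). The transmembrane chain Col23a1 was at 3.68, 3.53 and 2.15 against 0.996, 1.48 and 1.24 FPKM (1.04 ± 0.27, adjusted p = 0.094). By voom these 3 were called as well. Type I chains differed less, with Col1a1 at 6611, 8048 and 10369 against 7919, 5877 and 7688 FPKM, which overlapped (0.21 ± 0.18, adjusted p = 0.68).

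In inverse co-culture at 72 h, 5 of 27 chains were called. Col5a2 rose, whereas Col5a3, Col8a2, Col6a2 and Col6a3 fell. Of 13066 genes, 3.27% were called higher and 9.57% lower. The median log2 fold change of all genes was -0.16 (-0.02 after median-ratio scaling), and that of the chains 0.20. With that scaling the calls over all genes changed from 427 higher and 1251 lower to 704 higher and 693 lower, beside which the values of the chains are to be read. The upstream windows of Col5a3 and Col8a2, the chains with the largest called changes, are shown with matches to GGGCGG, on either strand, in capitals.
Col5a3, chr9:20815068-20815167, minus strand: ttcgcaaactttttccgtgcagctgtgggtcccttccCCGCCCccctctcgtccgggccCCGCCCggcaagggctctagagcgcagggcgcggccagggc
Col8a2, chr4:126286694-126286793, plus strand: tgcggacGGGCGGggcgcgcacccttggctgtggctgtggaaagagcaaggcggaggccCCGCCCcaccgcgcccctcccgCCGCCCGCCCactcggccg

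GGGCGG was present within 250 bases upstream of 22 of 38 collagen promoter entries (57.9%), which belong to 35 chains, and of 32.7% of all 32851 promoters. The shares were 34.2% and 33.8% for CCAAT, 13.2% and 12.4% for TATAAA, 44.7% and 42.2% for CAGAC, and 2.63% and 6.75% for TGANTCA. These matches describe the letters only.

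Col5a3 encodes a further chain of type V with a narrow tissue range. It was at 28.2, 34.2 and 20.8 FPKM in co-culture and at 79.6, 67.0 and 66.0 FPKM in the control. The groups lay far apart (log2 fold change -1.36 ± 0.18, adjusted p = 0.0069), and the call held without any 1 library. Col8a2 was at 4.62, 6.31 and 4.05 against 10.95, 14.8 and 16.0 FPKM, again without overlap. It fell by 1.40 ± 0.21 on the log2 scale (adjusted p = 0.0084), a call that also held without any 1 library. After median-ratio scaling the changes were -1.21 for Col5a3 (adjusted p = 0.0097) and -1.26 for Col8a2 (0.013). With all 24 libraries in one model Col8a2 was not called (adjusted p = 0.18).

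The 3 abundant chains of type VI had lower means in co-culture, and 2 of them fell. Col6a2 was at 229, 235 and 227 FPKM against 314, 381 and 300 (-0.52 ± 0.11, adjusted p = 0.028), and Col6a3 at 198, 178 and 205 against 258, 466 and 309 (-0.79 ± 0.20, adjusted p = 0.044). The groups did not overlap for either. Col6a1 was at 737, 770 and 662 against 927, 1057 and 884 FPKM and was not called (-0.40 ± 0.12, adjusted p = 0.070). The calls of Col6a2 and Col6a3 were lost after median-ratio scaling (log2 fold change -0.37, adjusted p = 0.111, and -0.64, 0.108). Leaving out 1 library at a time, that of Col6a2 held only without co-culture replicate 2 (0.050) or 3 (0.040) and was 0.054 to 0.0998 without the others. That of Col6a3 held only without control replicate 1 (0.043) and was 0.052 to 0.122 without the others.

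**Figure D4:**
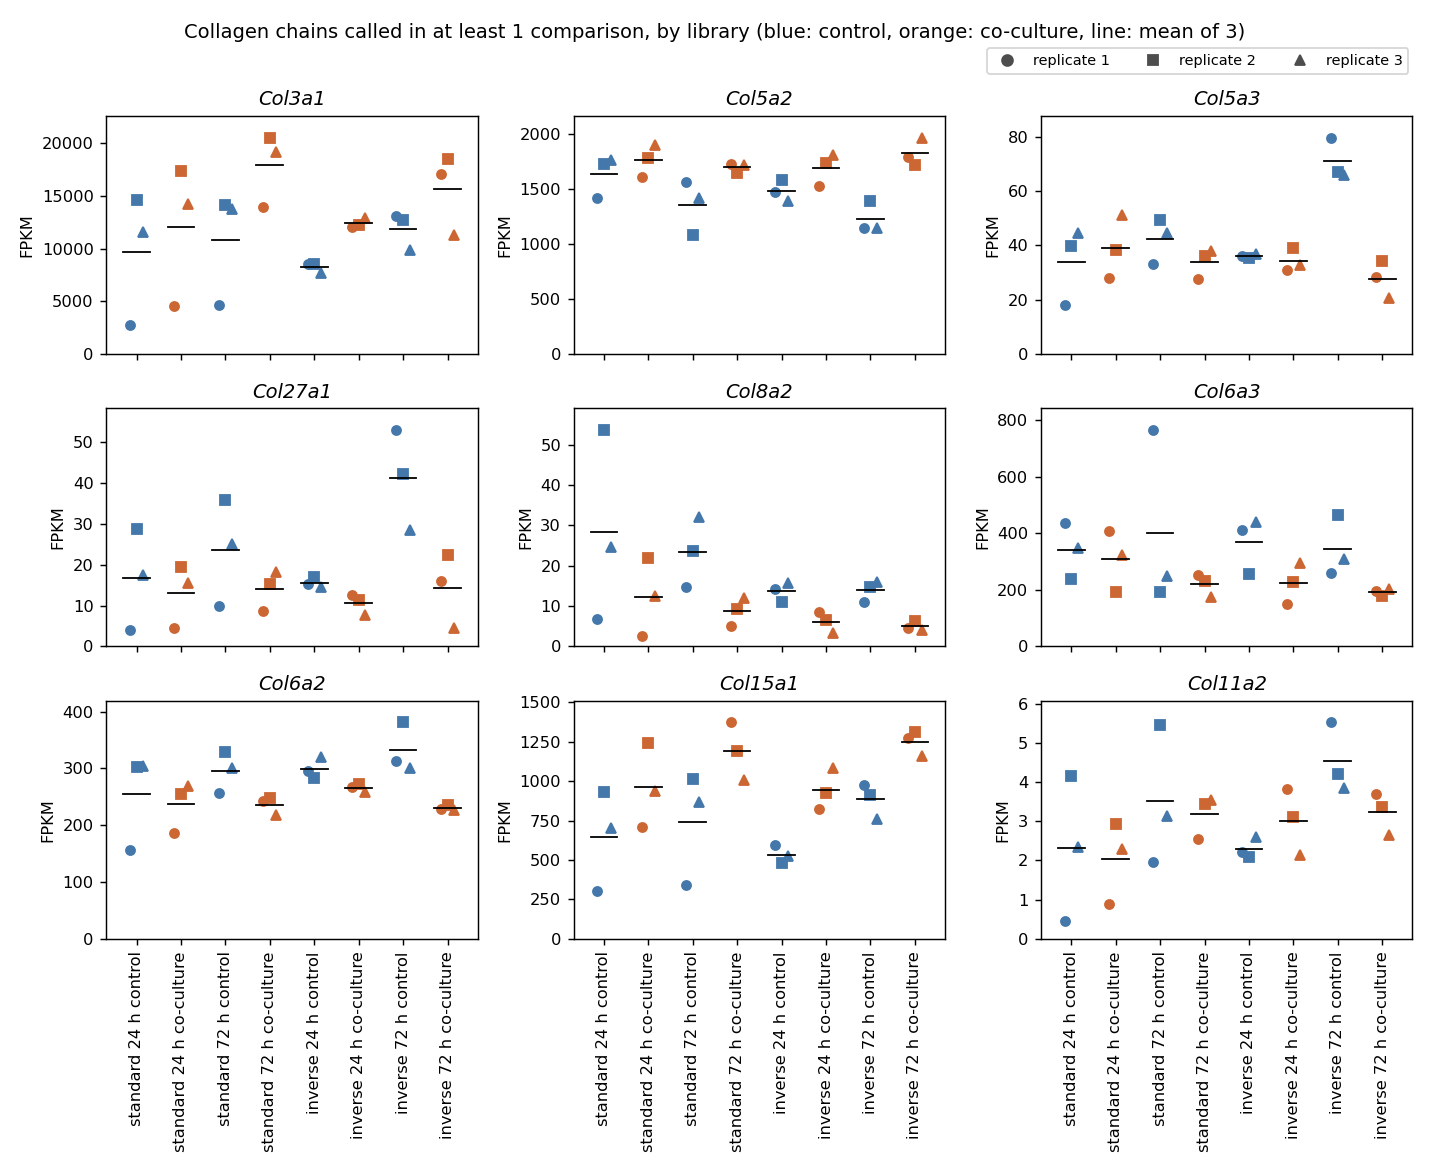
FPKM (y axis, from 0) of the 9 collagen chains called in at least 1 comparison, in each library of the 8 groups, with lines at group means, blue for control, orange for co-culture and a symbol for each replicate. Col5a3 stood at 66.0 to 79.6 in the inverse 72 h controls and at 20.8 to 34.2 in co-culture.

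Of the type I chains and the main type V chains, Col5a2 rose. It was at 1792, 1724 and 1969 FPKM against 1149, 1396 and 1151 (0.57 ± 0.14, adjusted p = 0.036). The groups did not overlap, but leaving out a library other than control replicate 2 (0.038) gave adjusted p-values of 0.051 to 0.139. Col1a1 was at 9517, 8277 and 9337 against 5200, 7248 and 4918 FPKM (0.66 ± 0.22, adjusted p = 0.082), and Col1a2 at 5491, 5110 and 4974 against 3314, 4132 and 3136 (0.57 ± 0.17, adjusted p = 0.070). Neither passed the threshold, although the groups were apart for both. The changes of Col5a2, Col1a1 and Col1a2 are given without median-ratio scaling, which moved the median over all genes from -0.16 to -0.02. Col15a1 was at 1274, 1309 and 1158 against 979, 911 and 762 FPKM (0.50 ± 0.14, adjusted p = 0.050, just above the threshold). Col27a1, a fibrillar chain of cartilage, was at 16.0, 22.4 and 4.55 against 52.9, 42.2 and 28.6 FPKM (-1.71 ± 0.52, adjusted p = 0.067). In all, 6 chains were higher without overlap (Col16a1, Col1a1, Col1a2, Col5a2, Col15a1 and Col7a1, the anchoring fibril chain), beside 9.53% of all genes, and 8 were lower (Col14a1, Col6a1, Col6a2, Col6a3, Col11a2, Col27a1, Col5a3 and Col8a2), beside 28.8%.

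The abundant network and FACIT chains were not called in any comparison. In the inverse model at 72 h, Col4a1 was at 2154, 2454 and 2077 FPKM in co-culture and at 1664, 2213 and 1970 in the control, and the groups overlapped (0.20 ± 0.16, adjusted p = 0.42). Col14a1 was at 288, 321 and 224 against 353, 346 and 342 FPKM, which did not overlap (-0.34 ± 0.14, adjusted p = 0.15). Col28a1 was at 449, 464 and 209 against 321, 255 and 242 FPKM, with co-culture replicate 3 below all controls (0.38 ± 0.30, adjusted p = 0.42). Without that replicate Col28a1 was called (0.016). Over all 24 libraries Col12a1 ranged 4.52-fold, Col14a1 4.04-fold and Col16a1 1.78-fold.

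Markers of other cell types moved in the same comparison. All 4 adipocyte markers tested of 5 fell, with a summed level of 22.7 to 94.0 FPKM in co-culture and 394 to 829 in the control. Of 7 macrophage markers, 6 were tested and 5 fell, with sums of 54.0 to 80.8 against 123 to 243. Of 9 markers of cancer cells and epithelium, 2 were tested and Krt19 rose, at 1.83, 1.17 and 3.11 FPKM against 0.176, 0.116 and 0 (2.03 ± 0.40, adjusted p = 0.019), and the list summed to 4.77 to 11.1 against 2.50 to 6.71. The acinar marker Cela1, the only 1 of 5 tested, fell from 16.3 ± 1.52 to 10.9 ± 0.23 FPKM (-0.56 ± 0.12, adjusted p = 0.024). Among the stellate cell and fibroblast markers, Pdgfra rose and Lum fell, 1 each of 7 tested. Their part in the collagen results was not tested.

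The inverse controls themselves changed between 24 h and 72 h. 5 of 26 chains rose and 0 fell, while 10.2% of 13092 genes were called higher and 9.05% lower. Col5a3 went from 36.0, 35.4 and 36.9 FPKM to 79.6, 67.0 and 66.0 (log2 fold change 0.96 ± 0.10, adjusted p = 0.0018). Col27a1 went from 15.4, 16.9 and 14.6 to 52.9, 42.2 and 28.6 (1.33 ± 0.20, adjusted p = 0.0037), and Col15a1 from 595, 479 and 526 to 979, 911 and 762 (0.73 ± 0.12, adjusted p = 0.0060). These 3 held without any 1 library, and the groups did not overlap, but a joint fit of the 24 libraries gave adjusted p-values of 0.084, 0.30 and 0.30. Col11a2, the second chain of type XI, was also called (0.83 ± 0.20, adjusted p = 0.021), but not without replicate 1 at 24 h (0.061), replicate 1 at 72 h (0.078) or replicate 2 at 24 h (0.075). Col3a1 was called (0.52 ± 0.15, adjusted p = 0.048), but held only without replicate 3 at 72 h (0.026).

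The 72 h controls enter both this change and the co-culture comparison. In inverse co-culture itself, Col5a3 was at 30.8, 39.0 and 32.7 FPKM at 24 h and at 28.2, 34.2 and 20.8 at 72 h, so its values overlapped between the times. Over the same time in the controls, the adipocyte sum was 153 to 235 FPKM at 24 h and the macrophage sum 72.0 to 79.6, and Acta2 fell from 2849 ± 66.9 to 1082 ± 296 FPKM (-1.43 ± 0.19, adjusted p = 0.0026). Of the 7 stellate cell and fibroblast markers tested, Des and Vim fell as well and Pdgfra rose. Their part in the change of the chains was not tested. In the standard controls 0 of 27 chains were called between the times, with 0% of 12963 genes called and 0 chains at an unadjusted p under 0.05.

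The effect of co-culture was then compared between models and times by the difference of log2 fold changes. Between inverse and standard, 0 of 29 chains were called at 24 h and 0 at 72 h, and 0% of 14452 genes were called at either time. An unadjusted p under 0.05 was found for 0 and 1 chains. The latter was Col5a3 (-1.04 ± 0.38, adjusted p = 1.00). Between 72 h and 24 h, 0 chains were called in the standard model (0% of 13694 genes, 0 chains at an unadjusted p under 0.05) and 0 in the inverse model (0% of 13722 genes, 6 chains). Col5a3 had the lowest p-value in the inverse model (-1.27 ± 0.22, adjusted p = 0.073) and was called by voom (0.038). A co-culture effect on a chain was therefore not shown to differ between models or times.

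Within libraries, the balance of classes was measured as the share of collagen fragments. Fibrillar chains held 64.5% to 79.7% of it. Beaded filament chains held 4.56% to 6.95% in standard co-culture at 24 h against 6.06% to 7.67% in the control, which overlapped. At 72 h the ranges were 4.35% to 5.14% and 6.79% to 10.2%. In the inverse model they were 5.44% to 6.02% against 7.67% to 8.99% at 24 h, and 4.29% to 4.73% against 7.69% to 8.74% at 72 h. In these last 3 comparisons every co-culture value lay below every control value. The fibrillar share was higher in co-culture without overlap in the same 3, with 75.4% to 78.1% against 69.1% to 73.4% in the inverse model at 72 h. In the inverse model at 24 h all other classes were apart as well, FACIT and network lower, transmembrane and those outside the 5 types higher. At 72 h these 4 overlapped in both models. In the standard model at 24 h only the share outside the 5 types was apart, and higher. A share falls when another class rises, so it gives balance and not level.

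**Figure D5:**
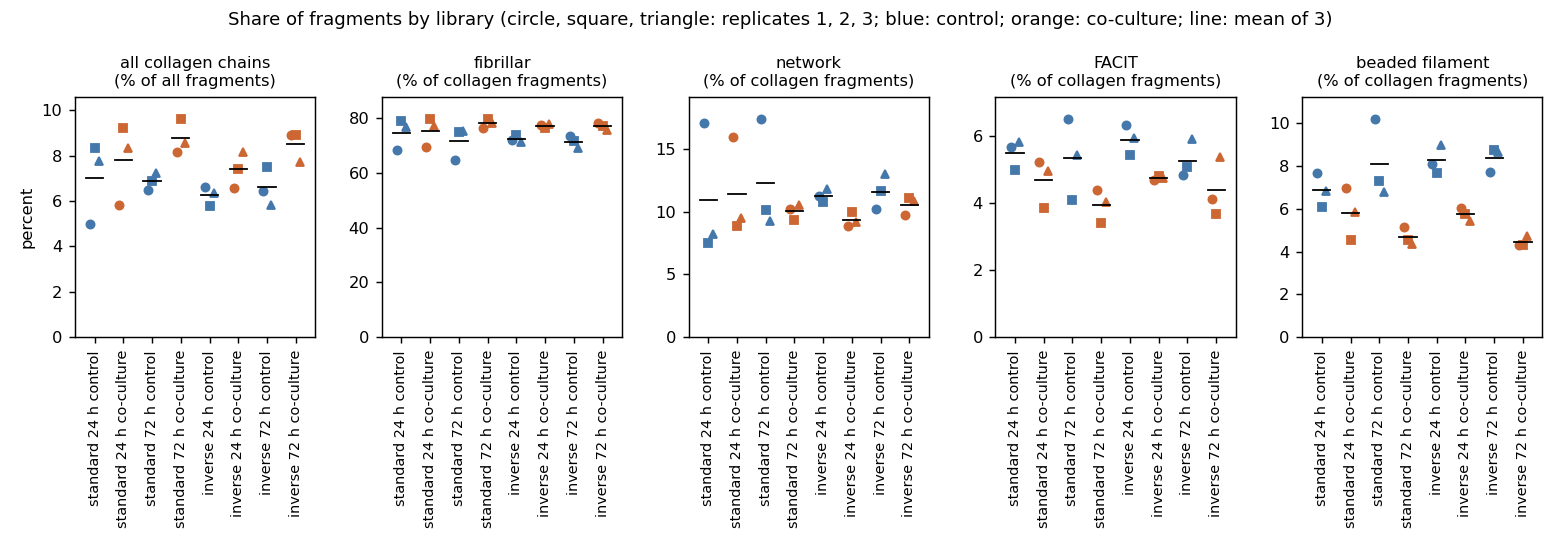
Share of all fragments taken by collagen chains (left) and of collagen fragments taken by 4 classes (y axes in percent, from 0) in each library of the 8 groups, blue for control, orange for co-culture, with lines at the mean of 3. Beaded filament chains held 4.29% to 4.73% in inverse 72 h co-culture and 7.69% to 8.74% in its control.

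Genes that modify, export, cut, cross-link or bind collagen were followed as a list of 45, of which 38 were tested in each co-culture comparison. 0 were called in the standard model at either time. In the inverse model at 24 h, 0 rose and 1 fell (1.08% and 1.39% of all genes), the collagen-binding integrin Itga1 (-0.91 ± 0.16, adjusted p = 0.026). At 72 h, 8 rose and 2 fell, beside 3.27% of all genes called higher and 9.57% called lower. The prolyl 4-hydroxylase subunits P4ha1, P4ha2 and P4ha3 and the lysyl hydroxylase Plod1 rose, with P4ha1 at 213 ± 19.9 against 100 ± 4.06 FPKM (SD, n = 3, log2 fold change 1.08 ± 0.10, adjusted p = 0.0036). The cross-linking oxidases Lox, Loxl2 and Loxl4 rose, with Loxl2 at 183 ± 37.0 against 101 ± 24.2 FPKM (0.86 ± 0.21, adjusted p = 0.035). The collagen uptake receptor Mrc2 rose (0.78 ± 0.10, adjusted p = 0.0069), whereas the collagen receptors Ddr1 (-0.55 ± 0.09, adjusted p = 0.012) and Itga1 (-0.84 ± 0.18, adjusted p = 0.024) fell. The list's median was 0.14, against -0.16 over all genes. For the difference of effects between inverse and standard, 0 of 41 genes tested were called at 24 h and 0 at 72 h. Between the times, 0 of 41 were called in the standard and 0 of 38 in the inverse model. In all these comparisons 0% of all genes were called. A co-culture effect on these genes was therefore not shown to differ between models or times. In the inverse controls from 24 h to 72 h, 2 of the 38 tested rose and 10 fell, beside 10.2% and 9.05% of all genes. Among those that fell was the collagen chaperone Serpinh1, from 2579 ± 114 to 1796 ± 81.3 FPKM (-0.52 ± 0.10, adjusted p = 0.0093). Lox and P4ha3, called higher in co-culture at 72 h, also fell over time in these controls. Ddr1 was called lower in both comparisons. The 72 h controls enter both.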

How the data were processed

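The authors aligned paired reads to GRCm38 with HISAT2 2.0.5, counted fragments with featureCounts 1.5.0-p3 and deposited FPKM values per gene, with no counts used here. Low FPKM values were whole multiples of 1 fragment for 95.83% to 96.88% of values (tolerance 0.02 fragments, checked up to 10 fragments), so fragment numbers were recovered. They were used for depth, shares and an alternative test (voom).

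Genes above an FPKM of 1 in at least 3 libraries compared were tested with limma 3.58.1 (R 4.3.3, intensity trend) on log2(FPKM + 0.5), two-sided, separately for each comparison. Adjustment was Benjamini-Hochberg over all genes tested, and the test was checked on simulated data. Symbols for 53706 of 53801 genes came from GENCODE M21. Promoters came from RefSeq (GRCm38.p6). All 24 sample columns were used (0 not used).

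Members and lists were chosen with earlier results of these data known. Values are given for chains called in any comparison, with or without the replicate block, for the 3 with the highest mean FPKM of each class and for their partners in a molecule. Col24a1 and Col7a1 lie outside this rule and were named after their values were seen. Same-numbered standard libraries deviated together (correlation of deviations 0.55 to 0.82 at 24 h, 0.48 to 0.60 at 72 h), so the numbers were taken to pair them. Whether they mark shared isolations is not given in the sources used here.

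The full genotype of the KPC line is not reported here.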

Additional observations from a re-analysis of the deposited data

How the results depend on the processing

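The number of collagen chains called depended on the fit. In the inverse model at 24 h it was 2, and 0 with no filter on low values, 0 without an intensity trend, 0 with the replicate block, 0 with all 24 libraries in one model and 5 by voom. At 72 h it was 5, and 2 with no filter, 3 without a trend, 3 with the block, 2 with all 24 libraries and 9 by voom. In the inverse controls over time it was 5, and 3 with no filter, 0 with all 24 libraries and 9 by voom. The cause was not tested. For the 72 h minus 24 h difference in the inverse model it was 0, and 1 by voom (Col5a3). Leaving out 1 library at a time gave 0 to 3 chains in the inverse model at 24 h, 2 to 6 at 72 h, 3 to 8 in the controls over time and 0 to 1 for the 72 h minus 24 h difference, and 0 in all other comparisons. The 14 fold changes recomputed under each alternative, those of chains called in a comparison, kept their sign.

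With the replicate block, standard co-culture at 24 h had 1 chain called in place of 0, and the pairing there comes from the data. In the inverse model same-numbered libraries did not deviate together (correlations of deviations -0.17 to 0.15), and the block lowered the counts as given above. The alternative without replicate 1 of the standard groups was chosen after the data were seen and changed no call. The 15 chains never tested had a median of 0 to 18.5 fragments, with up to 80 in a single library (Col6a6). Whether they differed between groups was not tested.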

Other observations

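Beaded filament chains of the Col6a4 to Col6a6 cluster on chromosome 9 were almost silent, with an uneven spread over libraries. Col6a5, a type VI chain of skin and lung, was at 0.9498, 2.38, 1.095 and 1.91 FPKM in the 4 standard libraries of replicate 2, at 0.364 to 0.488 in those of replicate 3 and at 0 in those of replicate 1. In the inverse model it did not exceed 0.086. Its neighbour Col6a6 had its highest value, 0.689 FPKM, in the 24 h control of standard replicate 2, the library in which Col6a5 was highest too. Of the mesothelial markers, Lrrn4 was at 3.45 to 4.07 FPKM in the standard libraries of replicate 2, at 1.93 to 2.26 in those of replicate 3, at most 0.084 in those of replicate 1 and at most 0.186 in the inverse model. Upk3b was at 1.69 to 3.60 in standard replicates 2 and 3 and at most 0.782 elsewhere. Wt1 differed, at 12.7 to 24.4 in standard replicate 1 and 19.6 to 34.3 in the inverse model, where Col6a5 was low or at 0. Msln was highest, at 2.66, in inverse 24 h co-culture replicate 2. The macrophage markers summed to 377 to 1288 FPKM in the standard libraries of replicate 2 and to 36.8 to 175 in the other standard libraries, but also to 123 to 243 in the inverse 72 h controls, where Col6a5 did not exceed 0.086. Their part in the level of Col6a5 was not tested.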
